A study of Mus musculus with 6 samples.

Results

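Imprinted genes were examined in the RNA that was bound to ribosomes of MeA *Kiss1* cells from OVX and E2-treated female mice. The 43 genes were chosen by symbol, as protein-coding genes known to be imprinted in the mouse or to lie in an imprinted domain. No measured value enters the rule itself, but the genes were chosen with earlier results of these data known. Of the 43 genes, 40 were among the 13886 genes of the table, and *Mkrn3*, *Phlda2* and *Slc22a18* were not analysed here. The lowest group mean of the 40 genes was that of *Asb4*, at 0.61 log2 CPM (reads of a gene relative to the library size), so each of them was above 1 CPM on average in both groups.

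The KissRibo females were Kiss1Cre+/Rpl22HA+/+, and Cre under the control of *Kiss1* placed an HA tag on the ribosomal protein RPL22. Cells that made Cre at any earlier time keep the tag. Ovariectomy was done at 8 weeks of age in both groups, followed by 4 days of E2 and 7 days without it. The OVX group received no further E2 and the E2 group was treated for 5 days. There were 3 libraries per group, each from MeA punches of 4 pooled mice, so the p-values measure the spread between pools.

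Imprinted genes are transcribed mostly from 1 parental chromosome, and methylation set in the egg or the sperm marks which copy is used. They lie in clusters that share a control region, and many act in fetal growth, the placenta, feeding and maternal behavior. Some of them, such as *Grb10*, use different parental copies in neurons and in other tissues. These libraries do not separate the parental copies, so a level here is the sum of both.

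The scaled library size, computed from the lowest value in each library, was between 28.1M and 34.2M. *Kiss1*, which defines the cells and is known to rise with E2, was between 1.13 and 2.29 in OVX and between 3.45 and 3.80 log2 CPM in E2 libraries for the first of its 2 gene models. For the other it was between -5.82 and 0.10 in OVX and between 2.65 and 3.18 in E2. The -5.82 is the lowest value of any gene in OVX replicate 1, held by 12 genes and taken as a count of 0. *Cck*, which encodes cholecystokinin, was between 8.88 and 9.07 in OVX and between 9.11 and 9.34 in E2. RNA of other cells was also present, since all 8 markers of astrocytes, oligodendrocytes, microglia and choroid plexus were listed for each of those cell types. The 3 listed markers of the anterior pituitary were uneven. They summed to 6.35, 1030 and 81.5 CPM in OVX and 124, 228 and 2.02 CPM in E2 replicates 1, 2 and 3. In these bulk samples, fewer cells of a type and less RNA per cell cannot be told apart. A list of 6 markers was chosen for excitatory forebrain neurons that lie outside the MeA. The paper names *Slc17a7* (Vglut1), which is on this list, among the transcripts of MeA *Kiss1* cells. The list may therefore not be specific to neurons outside the MeA. All 6 markers had a lower mean in E2, but *Tbr1* hardly differed, at -0.048 log2 units with an SE of 0.07. Their summed level was 1140, 957 and 880 CPM in OVX and 725, 668 and 871 CPM in E2 replicates 1, 2 and 3. Most of this sum was *Slc17a7*, with geometric means of 822 CPM in OVX and 613 CPM in E2. All 4 listed markers of erythroid cells were higher in E2 without overlap.

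Most of the 40 imprinted genes chosen here were above the typical level of a listed gene. Their median was 6.71 log2 CPM, against 4.76 over all genes, and 30 of 40 were above that value. This does not hold for imprinted genes in general. The 28 listed genes of a further list of imprinted genes, given below, had a median of 4.225 log2 CPM. Per kilobase of the longest annotated transcript, the median was 4.19 for the imprinted genes and 2.97 for the 13873 genes with a known length. On this scale 31 of the 40 genes were above the median rank and 13 were among the highest 10% of genes. The summed level of the 40 genes was 8970, 9010 and 9250 CPM in OVX and 8820, 9590 and 8810 CPM in E2 replicates 1, 2 and 3, and the groups overlapped.

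The highest levels per kilobase belonged to *Snrpn*, *Gnas*, *Nnat*, *Nap1l5* and *Ndn*, with mean log2 CPM per kb of 8.80, 8.75, 8.58, 7.89 and 7.36. They ranked 53rd, 58th, 72nd, 168th and 273rd among all genes with a length. The range of the libraries of *Snrpn* overlapped that of *Gnas*, and the range of *Gnas* overlapped that of *Nnat*, so these neighbors were not fully apart. With the total exonic length in place of the longest transcript the same 5 genes led, and *Gnas* was the fifth of them. The lowest levels per kilobase were those of *Asb4* at -0.81, *Dio3* at 1.12 and *Rtl1* at 1.72, and with total exonic length *Asb4*, *Sgce* and *Pon2* were the lowest.

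**Figure D1:**
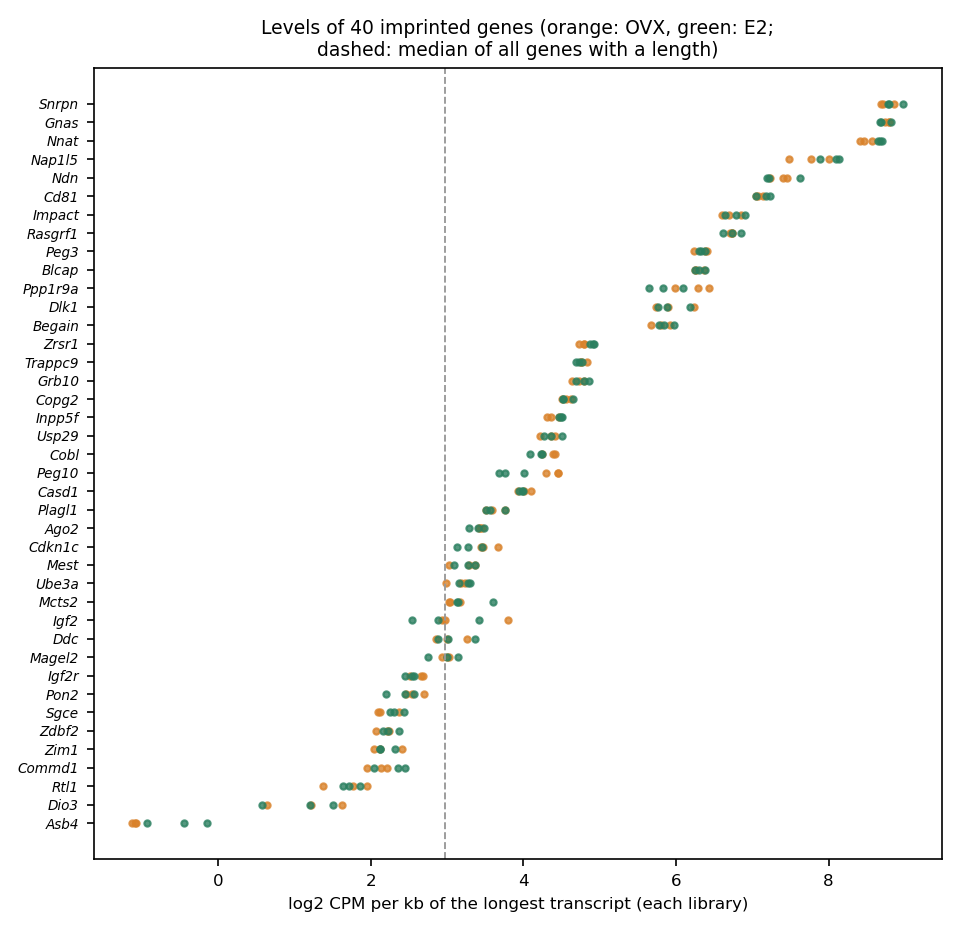
Log2 CPM per kb of the longest transcript (x axis) for the 40 imprinted genes (y axis, ordered by their mean). Points are single libraries, orange for OVX and green for E2, and the dashed line marks the median of all genes, 2.97. The points run from *Snrpn* and *Gnas* at the top, with means of 8.80 and 8.75, to *Asb4* at -0.81.

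The comparison of E2 with OVX asks whether transcripts of these cells differ in level with the hormone. With E2, 1 of the 40 imprinted genes was lower and 0 were higher at an adjusted p under 0.05 (limma with a mean-variance trend, Benjamini-Hochberg over all 13886 genes). In the same fit, 0.288% of all genes passed, with 0.23% higher and 0.0576% lower. The gene was *Peg10*, which the paper had already listed as lower with E2 in these same libraries. The other 39 genes did not pass, with differences in log2 CPM from -0.38 to 0.59 and adjusted p-values from 0.298 to 1. At an unadjusted p under 0.05 there were 6 imprinted genes, *Peg10*, *Ppp1r9a*, *Nnat*, *Nap1l5*, *Zrsr1* and *Cobl*, or 6 of 40 beside 8.56% of all genes. The libraries of 4 of the 40 genes did not overlap between groups, with *Peg10* lower and *Nnat*, *Zrsr1* and *Asb4* higher in E2, beside 13.7% of all genes, 6.85% higher and 6.82% lower.

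Most differences were small, for the imprinted genes as for all genes. E2 minus OVX was above 0 for 21 genes and below 0 for 19, with a median of 0.01 against 0.00 over all genes. The median size of the difference, without its sign, was 0.063 against 0.089 over all genes, and it was under 0.2 for 33 of 40 genes and for 79.2% of all genes. For 20 of the 40 genes the whole 95% interval of the difference lay within 0.25 log2 units of 0, as it did for 31.0% of all genes. The median SE was 0.08 for the imprinted genes and 0.11 for all genes, and precision goes with level. The size of the differences was not compared with that of genes at the same level. Grouped by the copy that textbooks give as the active one, 13 of 21 paternally expressed genes were above 0 with a median of 0.04, and 4 of 12 maternally expressed genes with a median of -0.02. The remaining 7 genes have both copies active, switch copies between tissues or have reports that differ. Their median was 0.02.

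**Figure D2:**
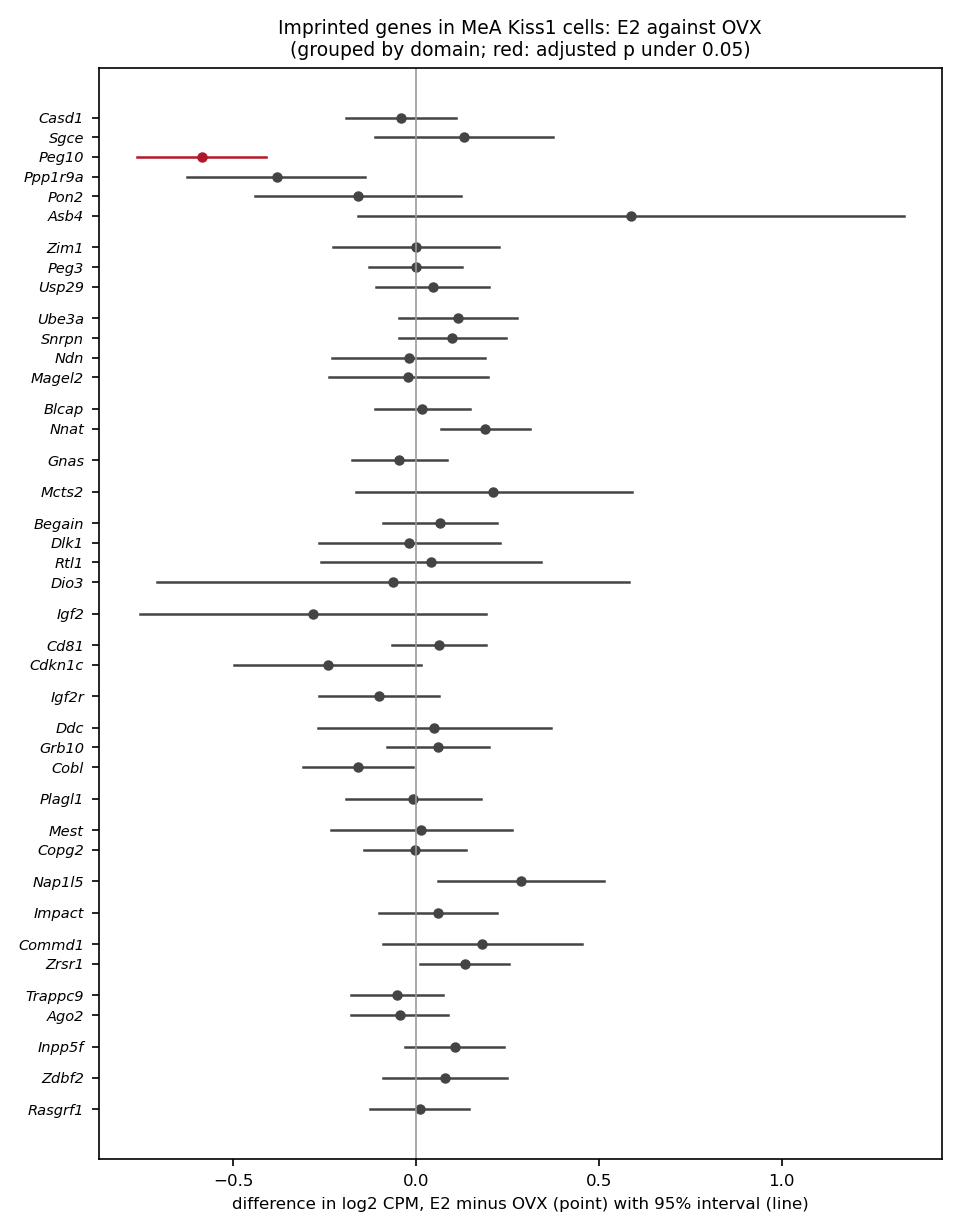
Difference in log2 CPM, E2 minus OVX (x axis), for each of the 40 imprinted genes (y axis), with gaps between imprinted domains. Points are the limma estimates and lines their 95% intervals, with red for an adjusted p under 0.05. *Peg10* at -0.59 is the only red point, and the lines of 20 genes stay within 0.25 of 0.

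*Peg10* is a paternally expressed gene that comes from a retrotransposon, keeps its gag and pol reading frames and is needed for the placenta. Its gene, ENSMUSG00000092035, is at chr6:4747306-4760517 on the plus strand (GRCm38). In OVX it was 7.03, 7.19 and 7.19 log2 CPM, and in E2 it was 6.74, 6.49 and 6.41. All E2 libraries were below all OVX libraries, and the lowest OVX and the highest E2 library were both replicate 1.

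The mean of *Peg10* in OVX was 7.14 ± 0.09 (SD, n = 3) and that in E2 was 6.55 ± 0.17 (SD, n = 3), or 141 and 93.7 CPM as geometric means. E2 minus OVX was -0.59 with an SE of 0.08 and a 95% interval from -0.76 to -0.41, a level of 0.666 times that in OVX (adjusted p = 0.00562, limma). All 6 forebrain excitatory markers and all 8 choroid plexus markers had a lower mean in E2 as well. With the mean of the first list as a covariate the difference was -0.81, with an SE of 0.10 and an adjusted p of 0.0167, and with that of the second list it was -0.51, with an SE of 0.08 and an adjusted p of 0.0214. The summed level of the first list did not overlap between OVX and E2. A fit with this covariate therefore cannot separate it from the treatment, for *Peg10* or for the genes below. The erythroid markers moved the other way, and their part in the result was not tested. The spread of *Peg10* within groups was 1.76 times that of genes at the same level. Its SE in the fit with the trend may therefore be too small. Without the mean-variance trend the adjusted p of *Peg10* was 0.402, in a fit in which 0 of the 13886 genes passed.

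*Peg10* lies in a cluster with 5 of the other listed imprinted genes. *Sgce*, which encodes epsilon-sarcoglycan and is paternally expressed, starts 0.099 kb from *Peg10* and runs the opposite way. It was 4.24, 4.26 and 4.52 in OVX and 4.58, 4.39 and 4.44 log2 CPM in E2. The groups overlapped, and the difference of 0.13 had a 95% interval from -0.11 to 0.38, which does not reach that of *Peg10*.

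*Ppp1r9a* encodes neurabin-1, which holds protein phosphatase 1 on actin at synapses, and starts 156 kb beyond *Peg10*. It was 9.54, 9.69 and 9.24 in OVX and 8.90, 9.09 and 9.34 log2 CPM in E2. The highest E2 library was above the lowest OVX library, both being replicate 3. The difference was -0.38 with an SE of 0.11 (adjusted p = 0.298), and it was -0.05 with an SE of 0.13 with the forebrain excitatory mean as a covariate. Its spread within groups was 3.55 times the median of the 500 genes nearest to it in level.

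*Casd1*, a sialic acid O-acetyltransferase, and *Pon2*, the paraoxonase of this cluster, had differences of -0.04 and -0.16. *Asb4*, an ankyrin repeat and SOCS box protein, had the lowest level of the 40 genes. It was 0.59, 0.62 and 0.63 in OVX and 1.56, 1.26 and 0.78 log2 CPM in E2. All E2 libraries were above all OVX libraries, with E2 replicate 3 close to the OVX range. The difference of 0.59 had an SE of 0.35 (adjusted p = 0.700). It was 0.20 with an SE of 0.53 with the forebrain excitatory mean as a covariate.

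Within 1 Mb on either side of the start of *Peg10* there were 12 listed genes, of which 7 were below 0 and 5 above. *Peg10* was the only one of the 12 past the threshold, which 0.288% of all genes passed. The libraries of 4 of the 12 did not overlap, namely *Peg10*, *Asb4*, *Calcr* and *Pdk4*, beside 13.7% of all genes. *Calcr*, the calcitonin receptor, starts at -983 kb from *Peg10* and was 4.43, 4.36 and 5.26 in OVX and 4.19, 3.99 and 3.38 log2 CPM in E2. Its difference was -0.83 with an SE of 0.23 (adjusted p = 0.256). It was -1.57 (adjusted p = 0.052) with the forebrain excitatory mean as a covariate and -0.54 without OVX replicate 3. *Pdk4*, which inhibits pyruvate dehydrogenase, had 0.673 times its OVX level in E2 (adjusted p = 0.463).

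**Figure D3:**
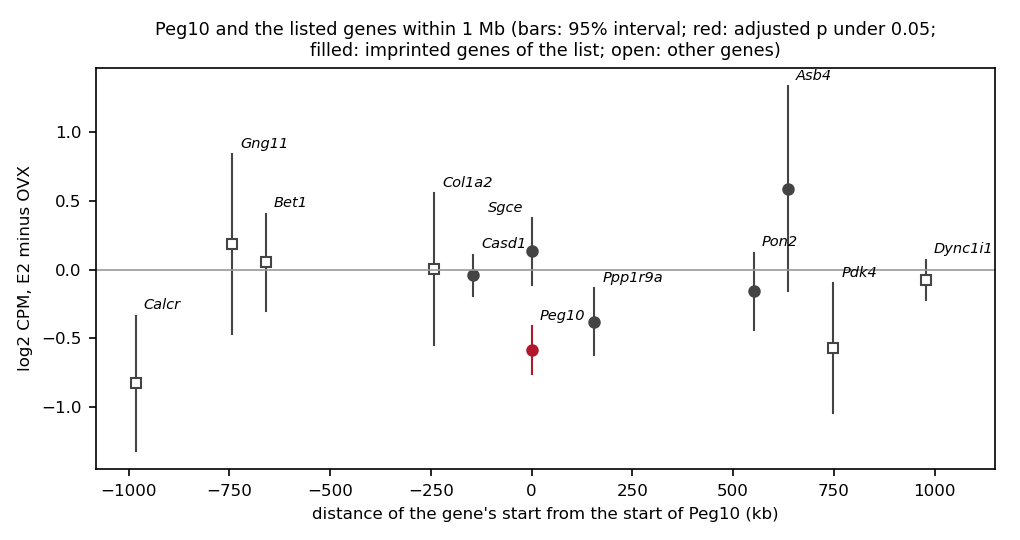
Difference in log2 CPM, E2 minus OVX (y axis), of the 12 listed genes within 1 Mb of *Peg10* against the distance of their start from its start in kb (x axis). Bars are 95% intervals, filled circles imprinted genes of the list and open squares other genes. *Peg10*, in red, is at -0.59, while *Sgce* at nearly the same place is at 0.13.

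Promoter windows from 250 bases before to 50 after the start were read from RefSeq (GRCm38.p6), and 36 of the 43 genes had 59 such windows, all but *Peg10*, *Sgce*, *Impact*, *Ago2*, *Trappc9*, *Rtl1* and *Cdkn1c*. Windows are shown for the 3 genes whose libraries were all higher in E2, *Nnat*, *Zrsr1* and *Asb4*, and for *Peg3*, whose window is shared with a neighbor. Capitals mark CpG, the dinucleotide whose methylation sets the imprint. The *Nnat* window is chr2:157559828-157560127 on the plus strand with 17 CpG, and the *Zrsr1* window is chr11:22971755-22972054 on the plus strand with 10 CpG. For *Asb4* the first of 2 windows, chr6:5383136-5383435 on the plus strand, holds 6 CpG. The *Peg3* window, chr7:6730370-6730669 on the minus strand, holds 13 CpG.
Nnat: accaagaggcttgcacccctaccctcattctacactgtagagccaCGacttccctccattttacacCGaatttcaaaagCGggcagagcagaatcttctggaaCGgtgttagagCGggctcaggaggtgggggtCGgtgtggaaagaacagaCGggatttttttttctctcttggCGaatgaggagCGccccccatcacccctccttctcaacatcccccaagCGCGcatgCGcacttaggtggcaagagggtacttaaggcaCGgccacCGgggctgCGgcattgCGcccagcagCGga
Zrsr1: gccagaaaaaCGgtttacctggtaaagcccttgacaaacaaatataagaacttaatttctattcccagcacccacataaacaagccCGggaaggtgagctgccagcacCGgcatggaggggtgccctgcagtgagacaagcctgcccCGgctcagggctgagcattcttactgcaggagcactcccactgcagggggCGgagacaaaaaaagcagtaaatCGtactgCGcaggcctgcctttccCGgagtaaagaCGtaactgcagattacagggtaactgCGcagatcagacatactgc
Asb4: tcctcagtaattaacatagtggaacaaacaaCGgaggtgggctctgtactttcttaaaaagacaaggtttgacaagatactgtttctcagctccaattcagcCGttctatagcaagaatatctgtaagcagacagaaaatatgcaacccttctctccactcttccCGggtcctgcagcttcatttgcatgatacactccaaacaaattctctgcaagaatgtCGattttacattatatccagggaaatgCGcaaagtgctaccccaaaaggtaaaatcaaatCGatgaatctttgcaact
Peg3: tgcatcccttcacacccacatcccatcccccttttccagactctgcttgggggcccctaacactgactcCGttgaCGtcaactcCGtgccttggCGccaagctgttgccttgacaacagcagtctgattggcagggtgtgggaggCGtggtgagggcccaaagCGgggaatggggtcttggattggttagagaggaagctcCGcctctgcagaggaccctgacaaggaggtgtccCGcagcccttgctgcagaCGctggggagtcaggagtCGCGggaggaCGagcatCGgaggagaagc

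The windows of the imprinted genes held a median of 17 CpG, against 7 in all 32851 windows of the RefSeq table. The estrogen response element, GGTCA and its reverse complement 3 bases apart, was searched on both strands and was in 0.07% of all windows and in 0 of the 59, which include none of *Peg10*. Its half-site GGTCA, which is part of the full element, was in 40.5% of all windows and in 23.7% of the 59 (14 windows). The YY1 motif AANATGGCG was in 2.38% of all windows and in 3.39% of the 59 (2 windows). The 4 windows shown hold none of these letters on either strand. A match or its absence in these windows is a description of the sequence only.

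*Nnat* encodes neuronatin, a small membrane protein of the endoplasmic reticulum in neurons, and is paternally expressed from an intron of *Blcap*. It was 8.95, 9.0 and 9.11 in OVX and 9.18, 9.24 and 9.21 log2 CPM in E2. All E2 libraries were above all OVX libraries, by a small margin. The difference was 0.19 with an SE of 0.06 and a 95% interval from 0.07 to 0.31 (adjusted p = 0.298). It was 0.128 with an SE of 0.085 with the forebrain excitatory mean as a covariate. Its host gene *Blcap* had a difference of 0.02, with a 95% interval from -0.11 to 0.15, and its groups overlapped.

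*Zrsr1* is a paternally expressed retrogene of the splicing factor gene *Zrsr2* that sits in an intron of *Commd1*. It was 6.89, 6.96 and 6.96 in OVX and 7.10, 7.08 and 7.04 log2 CPM in E2. The E2 libraries were again all above the OVX libraries, and the spread within groups was 0.471 times that of genes at the same level. The difference was 0.13 with an SE of 0.06 (adjusted p = 0.535). It was 0.07 with an SE of 0.08 with the forebrain excitatory mean as a covariate. *Commd1* shares 412 exonic bases with *Zrsr1* on the opposite strand and had a difference of 0.18, and the parent *Zrsr2* had a difference of 0.14. The library kit did not keep the strand, so reads from shared bases cannot be told apart.

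*Nap1l5*, a paternally expressed nucleosome assembly gene, was 8.65, 8.36 and 8.88 in OVX and 8.98, 9.01 and 8.76 log2 CPM in E2. E2 replicate 3 lay below OVX replicate 3. The difference was 0.29 with an SE of 0.10 (adjusted p = 0.429), and it was 0.15 without OVX replicate 2. It was 0.10 with an SE of 0.15 with the forebrain excitatory mean as a covariate. *Cobl*, an actin nucleator beside *Grb10*, was 6.90, 6.73 and 6.87 in OVX and 6.57, 6.74 and 6.72 log2 CPM in E2, a difference of -0.16 with an SE of 0.07 (adjusted p = 0.547). With the forebrain excitatory mean as a covariate it was -0.07 with an SE of 0.10. The second OVX library was within the E2 range.

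**Figure D4:**
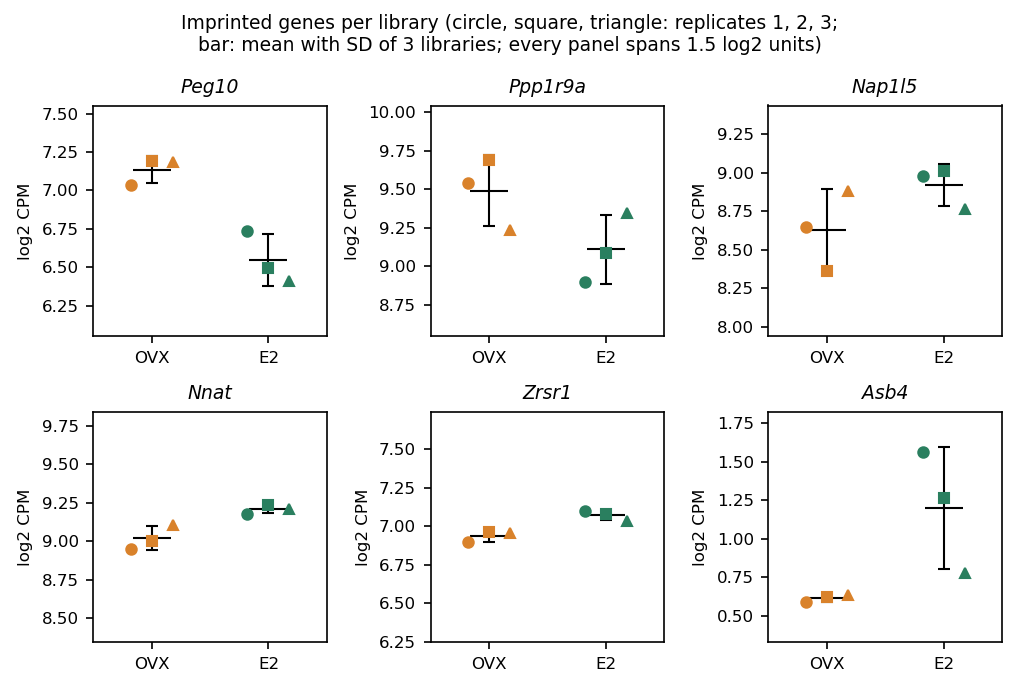
Log2 CPM (y axis, 1.5 log2 units in every panel) in OVX and E2 libraries (x axis) for 6 imprinted genes. Circle, square and triangle are replicates 1, 2 and 3, and black bars give the mean and SD of 3 libraries. The groups are apart for *Peg10*, *Nnat*, *Zrsr1* and *Asb4*, and they overlap for *Ppp1r9a* and *Nap1l5*.

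In the Prader-Willi/Angelman domain of chromosome 7, 4 genes were listed. *Snrpn* encodes SmN, a splicing protein of neurons, and was 9.77, 9.74 and 9.91 in OVX and 9.85, 10.03 and 9.84 log2 CPM in E2. *Ndn* encodes necdin, which acts in the development of GnRH neurons, and was 9.34, 9.12 and 9.29 in OVX and 9.08, 9.51 and 9.10 in E2. *Magel2*, a relative of *Ndn* that acts in hypothalamic function, was 5.14, 5.24 and 5.20 in OVX and 5.36, 5.21 and 4.96 in E2. All 3 overlapped between groups.

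The differences in this domain were 0.10 for *Snrpn*, -0.02 for *Ndn*, -0.02 for *Magel2* and 0.11 for *Ube3a*, the ubiquitin ligase that neurons express from the maternal copy. The 95% intervals of *Ndn* and *Magel2* ran from -0.23 to 0.19 and from -0.24 to 0.20. *Snrpn* shares 216 exonic bases with *Snurf* and 589 with *Gm38393* on its own strand, and *Ube3a* shares 1803 with the antisense transcript *Snhg14*. Reads from these bases may belong to either gene.

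In the *Peg3* domain the differences of all 3 genes were within 0.05 log2 units of 0. *Peg3*, a zinc-finger gene known for its part in maternal behavior, was 9.50, 9.52 and 9.35 in OVX and 9.45, 9.51 and 9.42 log2 CPM in E2. The libraries overlapped, and the difference of -0.00 had a 95% interval from -0.13 to 0.13. *Usp29*, a ubiquitin protease gene that starts 164 bases from *Peg3* on the other strand and shares 263 bases of the window shown, was 7.14, 7.27 and 7.32 in OVX and 7.28, 7.41 and 7.18 in E2. Its difference was 0.05, with a 95% interval from -0.11 to 0.20. *Zim1*, a maternally expressed zinc-finger gene, was 35.1 CPM in both groups as a geometric mean.

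The *Dlk1*-*Dio3* domain of chromosome 12 held 4 listed genes. *Dlk1*, a Notch ligand relative linked to the timing of puberty, was 7.96, 8.12 and 8.45 in OVX and 8.10, 8.40 and 7.98 log2 CPM in E2. *Dio3*, the deiodinase that inactivates thyroid hormone, was 2.64, 2.23 and 1.66 in OVX and 2.23, 1.59 and 2.52 in E2. *Rtl1*, another gene from a retrotransposon, was 4.04, 4.43 and 4.62 in OVX and 4.30, 4.53 and 4.38 in E2. The groups overlapped for all 3.

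The differences were -0.02 for *Dlk1*, -0.06 for *Dio3*, 0.04 for *Rtl1* and 0.07 for *Begain*, a postsynaptic protein gene. The interval of *Dio3* ran from -0.71 to 0.58, wide enough to hold the estimate of *Peg10*. That of *Dlk1*, from -0.27 to 0.23, does not reach the estimate of *Peg10*.

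Genes of growth and hormone signaling came from several domains. *Gnas*, which encodes the alpha subunit of the stimulatory G protein, was 10.77, 10.72 and 10.77 in OVX and 10.67, 10.80 and 10.66 log2 CPM in E2. The groups overlapped, and the difference of -0.04 had a 95% interval from -0.17 to 0.08. It shares 988 exonic bases with the antisense *Nespas* and 1469 with *Gm20721* on the opposite strand. *Igf2r*, the receptor that clears IGF2, and *Grb10*, an adaptor of insulin and IGF receptors, had differences of -0.10 and 0.06. *Cdkn1c*, the p57 inhibitor of the cell cycle, had a difference of -0.24 with an SE of 0.12 (-0.16 without E2 replicate 2), and *Plagl1*, a zinc-finger factor, one of -0.01.

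*Igf2*, the fetal growth factor, varied between libraries the most of the 40 genes relative to its level. It was 5.21, 6.03 and 5.17 in OVX and 5.66, 4.78 and 5.12 log2 CPM in E2. OVX replicate 2 was the highest library and E2 replicate 2 the lowest. The difference was -0.28 with an SE of 0.22 (adjusted p = 0.798), and the spread within groups was 4.47 times the median of the 500 genes nearest in level.

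The 8 choroid plexus markers summed to 804, 1090 and 698 CPM in OVX and 1030, 401 and 637 CPM in E2. From the highest to the lowest, the 6 libraries stood in the same order for this sum and for *Igf2*. Most of the sum was *Ttr*, with geometric means of 771 CPM in OVX and 584 CPM in E2. *Ttr* and *Clic6* had this order on their own, and the other markers did not. *Kcne2* and *Slc4a5*, for example, were lowest in OVX replicate 1. All 8 markers were highest in OVX replicate 2, while 6 of the 8 were lowest in E2 replicate 2. Also highest in OVX replicate 2 were 8 of 10 endothelial and mural markers. So were 5 of 8 fibroblast and meninges markers and all 3 listed anterior pituitary markers. The part of these cell types in the level of *Igf2* was not tested. Its difference was 0.07 with an SE of 0.11 with the choroid plexus mean as a covariate, which was chosen after seeing this order and is no independent evidence. Leaving out 1 library at a time gave differences from -0.52, without E2 replicate 1, to 0.00, without OVX replicate 2. *Igf2* also shares 3596 of its 5723 exonic bases with *Gm49394* on the same strand.

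**Figure D5:**
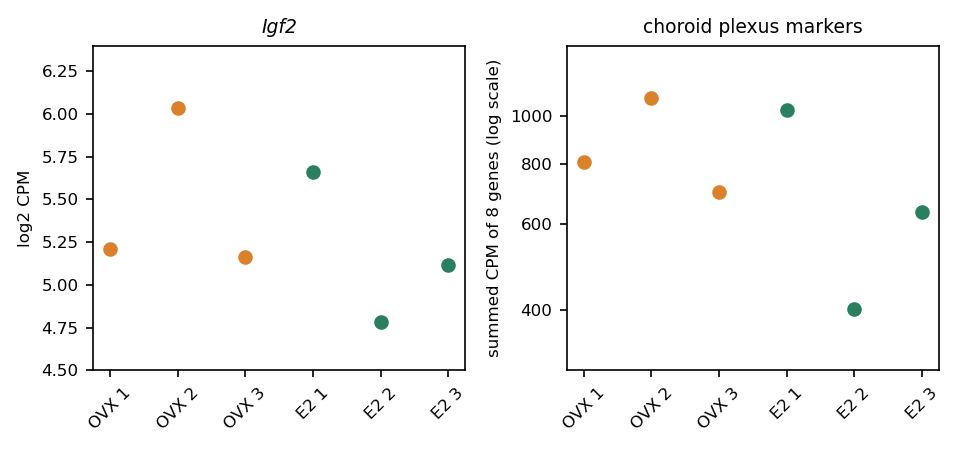
*Igf2* in log2 CPM (left y axis) and the summed CPM of 8 choroid plexus markers on a log scale (right y axis) in each library (x axis), with OVX in orange and E2 in green. Both are highest in OVX 2, at 6.03 log2 CPM and 1090 CPM, and lowest in E2 2, at 4.78 log2 CPM and 401 CPM. Most of the sum is *Ttr*.

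The libraries of *Ppp1r9a*, *Dlk1*, *Nap1l5* and *Ndn* were also uneven within groups, with spreads of 3.55, 3.25, 3.24 and 2.9 times those of genes at the same level. Of all genes, 1.48% had a ratio above that of *Ndn*. The ratio was above 1 for 28 of the 40 imprinted genes (70.0%) and for 50.2% of all genes, with a median of 1.22 for the imprinted genes. E2 replicate 2 was the highest library for 13 of the 40 genes, *Ndn*, *Snrpn*, *Nap1l5* and *Gnas* among them, and for 17.4% of all genes. OVX replicate 1 was the lowest library for 16 of the 40 and for 2923 of all 13886 genes.

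The remaining imprinted genes had differences between -0.05 and 0.21. *Mcts2*, a translation factor retrogene, was at 0.21 with an SE of 0.18, and *Inpp5f*, an inositol phosphatase gene, was at 0.11. *Cd81*, *Zdbf2*, *Impact* and *Ddc* were at 0.06, 0.08, 0.06 and 0.05. *Rasgrf1*, a Ras exchange factor gene, *Mest*, a hydrolase gene, and *Copg2*, a coatomer gene that shares 912 exonic bases with *Mest*, were at 0.01, 0.01 and -0.00. *Trappc9* and *Ago2*, which lie in the same domain of chromosome 15, were at -0.05 and -0.04.

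By structure, 5 of the 40 genes, *Ndn*, *Magel2*, *Mcts2*, *Dio3* and *Zrsr1*, had a single exon in every annotated transcript, as did 2.13% of all genes. The 40 genes lay on 11 chromosomes, with 11 on chromosome 7 and 9 on chromosome 6.

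A further list held 46 other imprinted genes, of which 28 were listed. Of these, 0 passed the threshold (0.288% of all genes) and 2 had an unadjusted p under 0.05 (8.56% of all genes). The difference was above 0 for 20 and below 0 for 8, with a median of 0.04. Over all genes, 7089 were above and 6797 below 0, with a median of 0.00. The libraries of 3 of the 28 did not overlap (13.7% of all genes), namely those of *Dhcr7*, an enzyme of cholesterol synthesis that was higher in E2 by 0.15, *Calcr*, and *Chrac1*, a chromatin gene that had a difference of -0.21 and shares 219 exonic bases with *Ago2*. Of 13 genes that set imprints or keep them in place, such as DNA methyltransferases, 12 were listed and 0 passed, with 1 at an unadjusted p under 0.05 and 1 without overlap, beside the same shares of all genes. *Dnmt3a*, a DNA methyltransferase of neurons, was 6.27, 6.34 and 6.37 in OVX and 6.18, 6.03 and 6.21 log2 CPM in E2. All E2 libraries were lower, and the difference was -0.19 with an SE of 0.07 (adjusted p = 0.445).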

How the data were processed

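MeA IP samples from KissRibo females were sequenced as unstranded polyA libraries, 3 from OVX and 3 from E2-treated mice. The authors trimmed reads with Trimmomatic 0.38 after FastQC 0.11.8, aligned them with STAR 2.6.0a, quantified them with RSEM on GRCm38, kept protein-coding genes whose mean CPM exceeded 1 in either group, and applied TMM and voom. The deposited values used are the authors' log2 CPM for 13886 genes. A deposited table of the authors' own comparison (log fold change, statistic, p-values and group averages) was not used.

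E2 and OVX libraries were compared with limma 3.58.1 in R 4.3.3 (eBayes with trend, prior df 9.55, treatment as the only term, 2-sided, Benjamini-Hochberg over all genes, threshold 0.05). The fit was tested on simulated data in which the spread of a gene followed from its level alone. That test does not cover genes whose spread departs from the trend. An exact permutation of 3 against 3 libraries cannot go below p = 0.1. Differences are E2 minus OVX in log2 CPM. The spread of a gene was its residual SD over the median of the 500 genes nearest in level. Positions, lengths and shared bases came from GENCODE mouse release M21 (GRCm38).

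The imprinted genes, marker lists and tests were chosen with earlier results of these data known. Genes were named with every library if past the threshold, without overlap, at an unadjusted p under 0.05, among the 5 highest or 3 lowest per kb, with a library more than 1 log2 unit from the next, or known in reproduction, hypothalamus or growth (*Mkrn3*, *Ndn*, *Magel2*, *Dlk1*, *Igf2* and *Gnas*). *Sgce*, *Peg3* and *Usp29* were given with every library, and *Pdk4* was named, after their values were seen. Alternatives were voom weights on rebuilt counts, no trend, sample weights, median centring, quantile normalization, 2 filters, pseudocounts of 1 and 0.1, robust empirical Bayes, a replicate block, the forebrain excitatory mean as a covariate, the choroid plexus mean as a covariate (chosen after seeing the data) and leaving out each library.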

Additional observations from a re-analysis of the deposited data

How the results depend on the processing

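*Peg10* was the only imprinted gene past the threshold in the main fit and under 18 of 19 alternatives, with differences between -0.81 and -0.51. Without the mean-variance trend its difference was -0.59 with an adjusted p of 0.402, and 0 imprinted genes and 0 of all genes passed; at an unadjusted p under 0.05 that fit had 3 imprinted genes and 1017 genes in all. Of all genes, 40 passed in the main fit, 3 with the forebrain excitatory mean as a covariate, and between 20 and 66 when 1 library was left out, with 21 without OVX replicate 1, 26, 20 and 66 without E2 replicates 1, 2 and 3. *Igf2* changed sign with the choroid plexus mean as a covariate (0.072) and without OVX replicate 2 (0.001), and leaving out 1 library gave it between -0.517 and 0.001. The other imprinted genes and the genes that set or keep imprints had 0 calls under each alternative. Libraries with the same replicate number did not deviate together (correlations across genes of -0.02, -0.12 and -0.08); with the replicate block 35 genes passed, and *Peg10* had an adjusted p of 0.0194. The log2 CPM of *Asb4* and *Dio3* had SEs of 0.35 and 0.30, so only large changes were detectable at their depth.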
